A study of Mus musculus with 6 samples.

Results

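Adenosine, ATP and NAD signal outside the cell through a chain of surface enzymes and receptors, and 10 genes of that chain were followed in CD11B+ cells of the injured kidney: Entpd1, Nt5e, Cd38, Adora2a, Adora2b, Adora3, P2rx4, P2rx7, P2ry6 and P2ry14. They were found by gene symbol among the 46603 genes of the count table, and all 10 passed the filter on low counts that left 15440 genes. The set was chosen by values measured in these same libraries, namely the falls of Adora2b and Cd38 in PTEC DN RAR mice. The levels and fold changes of the 10 genes are therefore given as a description, with no p, and where the edgeR threshold is named for them it only sorts the genes and supports nothing.

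Cells were bound to CD11B magnetic beads after digestion of whole kidneys from male mice aged 10 to 12 weeks, on day 3 after bilateral ischemia-reperfusion injury (IRI-AKI) with 28 minutes of pedicle clamping. All mice carried Rosa26-LSL-RARaT403X, an allele that encodes a dominant negative retinoic acid receptor behind a stop cassette. In 3 PTEC DN RAR mice PEPCK Cre, which is active in proximal tubule epithelial cells (PTECs), removed the stop, and 3 Cre– controls had no Cre. PEPCK is not a myeloid promoter, both groups were injured, and no uninjured group was compared. Each mouse gave 1 polyA RNA-Seq library, so the spread given is that between mice.

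ATP leaves stressed or dying cells and acts on P2X channels and P2Y receptors. CD39, the product of Entpd1, cuts ATP and ADP to AMP, and CD73, the product of Nt5e, turns AMP into adenosine, which acts on the P1 receptors encoded by the Adora genes. CD38 consumes NAD and releases ADP-ribose and cyclic ADP-ribose, which mobilise calcium. In injured tissue ATP is known as a danger signal for myeloid cells and adenosine as a brake on them.

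Gene counts per library ran from 29318041 to 46517005, at which 3 counts equal 0.0636 to 0.101 CPM (counts relative to library size after TMM scaling, the unit of all levels given unless stated otherwise). Itgam, which encodes CD11B, was abundant in all libraries but lower in PTEC DN RAR mice, at 1897 ± 139 CPM in Cre– controls and 1217 ± 207 CPM in PTEC DN RAR (SD, n = 3; log2 fold change -0.64, edgeR adjusted p = 0.008). Summed CPM of 14 proximal tubule markers was 1118 to 1334 in controls and 2770 to 4167 in PTEC DN RAR, and that of 8 endothelial markers was 81.4 to 121 and 236 to 288. For 8 infiltrating monocyte markers the sum was 2451 to 2690 in controls and 1213 to 1383 in PTEC DN RAR, and for 10 neutrophil markers 471 to 849 and 299 to 426, whereas the sums of 8 resident macrophage markers overlapped. Platelet markers summed to 278 to 412 CPM in controls and 34.9 to 47.0 CPM in PTEC DN RAR, and mitochondrial transcripts took 5.03% to 8.77% and 10.4% to 12.1% of counts. Gene by gene (edgeR adjusted p under 0.05), all 14 proximal tubule and all 8 endothelial markers were higher, beside 23.6% of all genes. Called lower were 6 of 8 monocyte, 5 of 10 neutrophil and 2 of 3 tested platelet markers, beside 17.1% of all genes. Of 8 resident macrophage markers 1 was lower and 1 higher. Marker RNA of several cell types thus moved with genotype, its part in the values below was not tested, and in these bulk samples fewer cells of a type and less RNA per cell cannot be told apart.

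Of the 10 genes, 5 were lower in PTEC DN RAR mice by the edgeR threshold (adjusted p under 0.05 over 15440 genes): Adora2b, Cd38, Nt5e, Adora3 and P2ry6. None was higher, whereas Entpd1, Adora2a, P2rx4, P2rx7 and P2ry14 did not pass. Among all genes tested 17.1% were called lower and 23.6% higher. The libraries of the genotypes did not overlap for the same 5 lower genes and for Adora2a, which was higher, against 24.2% of all genes lower and 29.2% higher without overlap. Nothing is read from these counts, because the genes were picked on this contrast. The median log2 fold change was -0.32 over the 10 genes and 0.04 over all genes tested.

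**Figure D1:**
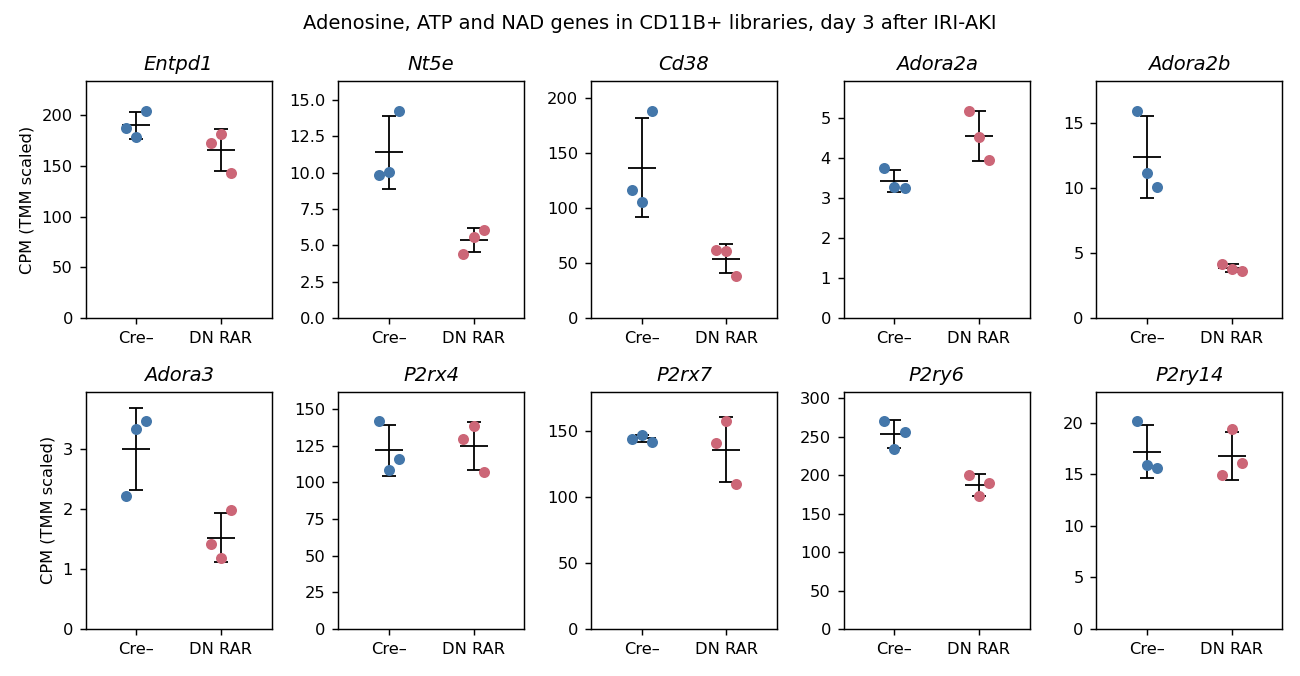
Level of each of the 10 genes in CPM after TMM scaling (y axes from 0, 1 scale per gene) in the 3 Cre– control (blue) and 3 PTEC DN RAR (red) libraries. Points are mice, and the black mark and bars give mean ± SD. The red points lie below all blue points for Nt5e, Cd38, Adora2b, Adora3 and P2ry6 and above them for Adora2a.

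The enzyme pair that makes adenosine from ATP was uneven. Entpd1 (chr19:40612366-40741602, plus strand, GRCm38), the first step, stood at 187, 179 and 205 CPM in Cre– controls and at 173, 182 and 143 CPM in PTEC DN RAR mice. Its groups overlapped, with a log2 fold change of -0.20 ± 0.11 (SE). Nt5e (chr9:88327197-88372092, plus strand), the second step, was far less abundant, at 9.86, 10.0 and 14.3 CPM in controls and 4.44, 5.61 and 6.04 CPM in PTEC DN RAR. The highest PTEC DN RAR value lay under the lowest control, and the level was 2.12-fold lower (log2 fold change -1.08 ± 0.19). Within a library the scaling cancels, and Nt5e counts per Entpd1 count were 0.0526, 0.0561 and 0.0697 in controls and 0.0257, 0.0309 and 0.0423 in PTEC DN RAR. The ratio was therefore lower in each PTEC DN RAR mouse, by 0.87 on the log2 scale in the mean.

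Cd38 (chr5:43868553-43912375, plus strand), the main NAD glycohydrolase of myeloid cells, stood at 117, 105 and 188 CPM in Cre– controls and at 61.7, 61.3 and 38.6 CPM in PTEC DN RAR mice. Control 3 was the high value and PTEC DN RAR mouse 3 the low one, and the groups did not overlap. The level was 2.54-fold lower in PTEC DN RAR (log2 fold change -1.34 ± 0.25). Without control 3 the log2 fold change was -1.09. Bst1, the related NAD ectoenzyme CD157 whose gene lies 24567 bp from Cd38, also fell, from 76.7 ± 5.99 to 45.4 ± 3.99 CPM (log2 fold change -0.76, adjusted p = 8.3e-04). Cd38 counts per Bst1 count were 1.67, 1.32 and 2.34 in controls and 1.42, 1.44 and 0.772 in PTEC DN RAR, so this ratio overlapped between genotypes.

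Adora2b (chr11:62248984-62266453, plus strand), the low-affinity A2b receptor that couples to Gs and raises cAMP, had the largest fold change of the 10 genes. It stood at 15.9, 11.2 and 10.0 CPM in Cre– controls and at 4.16, 3.77 and 3.62 CPM in PTEC DN RAR mice. The lowest control was well above the highest PTEC DN RAR library, and the level was 3.22-fold lower (log2 fold change -1.69 ± 0.20). These values rest on 317 to 622 counts per control and 160 to 174 per PTEC DN RAR library.

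The gene of the high-affinity adenosine receptor of the 2a type, Adora2a (chr10:75316877-75334784, plus strand), also coupled to Gs, had the opposite order. Its levels were 3.74, 3.29 and 3.26 CPM in Cre– controls and 5.18, 4.52 and 3.94 CPM in PTEC DN RAR. Each PTEC DN RAR library was above each control, with a log2 fold change of 0.40 ± 0.18 that did not pass the threshold. Adora2a counts per Adora2b count were 0.235, 0.294 and 0.325 in controls and 1.25, 1.20 and 1.09 in PTEC DN RAR. That within-library ratio was thus higher in every PTEC DN RAR mouse, by 2.06 on the log2 scale.

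Adora3 (chr3:105870858-105908926, plus strand), the A3 receptor that couples to Gi, had the lowest mean CPM of the 10 in both groups, with 86, 99 and 109 counts in controls and 59, 50 and 93 in PTEC DN RAR. As CPM this was 2.20, 3.32 and 3.45 in controls and 1.41, 1.18 and 1.97 in PTEC DN RAR. The groups were apart by a small gap (log2 fold change -0.97 ± 0.28), and the call was lost when control 2, control 3, PTEC DN RAR mouse 1 or PTEC DN RAR mouse 2 was left out (-0.93, -0.90, -0.92 and -0.82). Adora3 shares 779 bp, or 20.9% of its exon length, with Tmigd3 on the same strand, so its count is uncertain. Tmigd3 itself had 1 to 7 counts per library.

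Adora1, the Gi-coupled A1 receptor and the remaining P1 gene, is not among the 10 but completes the family. It stood at 4.02, 2.18 and 2.31 CPM in controls and at 5.59, 3.68 and 8.37 CPM in PTEC DN RAR, so that its groups overlapped while the edgeR call was higher (log2 fold change 1.04, adjusted p = 0.039). That call was lost without control 2 or 3 or PTEC DN RAR mouse 1 or 3 (log2 fold change 0.84, 0.87, 1.08 and 0.65) and with limma-voom (1.01, adjusted p = 0.057). Per kilobase of exon, Adora2b made up 73.0% ± 4.09 of the summed level of the 4 P1 receptor genes in controls and 42.0% ± 4.09 in PTEC DN RAR (SD, n = 3). The share of Adora2a was 12.5% ± 1.35 and 29.9% ± 4.59, and that of Adora1 was 5.28% ± 0.888 and 20.1% ± 6.91. Adora3 made up 9.24% ± 3.47 and 8.11% ± 1.74. These are parts of a single sum, so the fall of Adora2b by itself raises the shares of the others. The level of Adora2a itself went from 1.12 to 1.49 CPM per kb and that of Adora1 from 0.491 to 1.02. Shares with the longest coding transcript as length were not taken. On this per-length scale Adora2b led the P1 genes in all 6 libraries, while its counts, not divided by length, were below those of Adora2a in each PTEC DN RAR library.

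**Figure D2:**
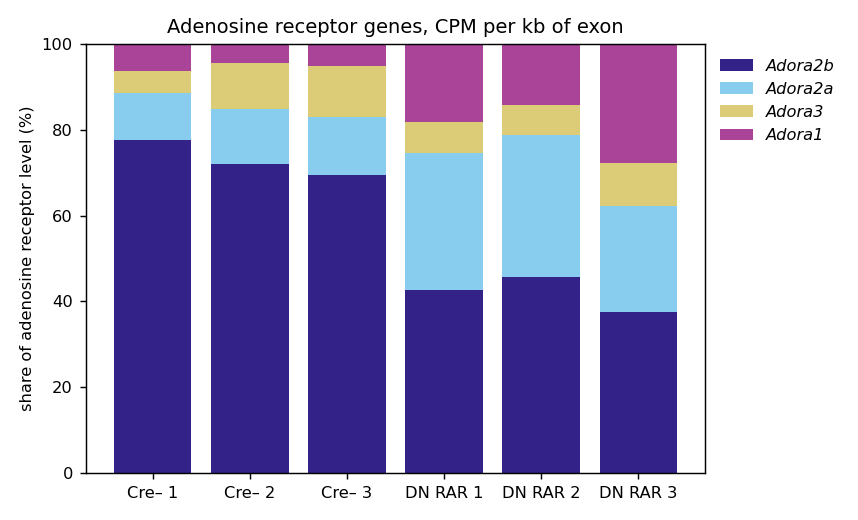
Share of each P1 receptor gene in their summed level (y axis, %, CPM per kilobase of exon) in each of the 6 libraries, as stacked bars. Adora2b takes 69.5% to 77.5% in Cre– controls and 37.6% to 45.7% in PTEC DN RAR libraries, and the parts of Adora2a and Adora1 are larger in the latter.

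Neither P2X channel gene passed the threshold. P2rx7 (chr5:122643911-122691432, plus strand), the low-affinity ATP channel that triggers NLRP3 inflammasome assembly and IL-1β release, stood at 144, 147 and 142 CPM in Cre– controls and 141, 157 and 110 CPM in PTEC DN RAR. P2rx4 (chr5:122707544-122729738, plus strand), the more ATP-sensitive channel that lies 16112 bp away, stood at 142, 108 and 116 CPM and at 130, 138 and 107 CPM. The groups overlapped for both, with log2 fold changes of -0.09 ± 0.13 and 0.03 ± 0.13. Their counts kept a ratio (P2rx7 per P2rx4) of 1.02 to 1.36 in controls and 1.03 to 1.14 in PTEC DN RAR.

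Of the receptors for uridine nucleotides and nucleotide sugars, P2ry6 passed the threshold and P2ry14 did not, and their difference was not tested. P2ry6 (chr7:100937630-100974649, minus strand), the UDP receptor tied to phagocytosis in microglia, stood at 270, 235 and 257 CPM in Cre– controls and 201, 173 and 190 CPM in PTEC DN RAR. All PTEC DN RAR values were below the controls, and the level was 1.35-fold lower (log2 fold change -0.44 ± 0.09). P2ry14 (chr3:59113855-59153618, minus strand), the UDP-glucose receptor, stood at 20.1, 15.9 and 15.6 CPM and at 14.9, 19.4 and 16.1 CPM. Its groups overlapped with a log2 fold change of -0.03 ± 0.15. P2ry14 lies within Med12l on the other strand without a shared exon, beside P2ry13 and P2ry12, ADP receptor genes at 54274 and 62654 bp that both fell. P2ry12 went from 71.5 ± 5.03 to 47.1 ± 1.56 CPM (log2 fold change -0.60, adjusted p = 0.001), and P2ry13 from 37.9 ± 3.12 to 27.3 ± 0.726 CPM (-0.47, adjusted p = 0.005), a call lost under pan-leukocyte scaling (-0.24, adjusted p = 0.171).

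Levels can be ranked between genes when divided by exon length. In Cre– controls P2ry6 was highest at 87.9 CPM per kb, followed by Cd38 at 35.1, Entpd1 at 34.1, P2rx7 at 24.2 and P2rx4 at 17.4 CPM per kb. Adora2b followed at 6.71, and P2ry14 at 1.55, Nt5e at 1.32, Adora2a at 1.12 and Adora3 at 0.802 CPM per kb closed the order. The ranges of Cd38 and Entpd1, of P2ry14 and Nt5e, and of Nt5e and Adora2a overlapped, so these neighbours were not separated. In PTEC DN RAR mice P2ry6 was again first at 65.0 CPM per kb, while Cd38 at 13.8 CPM per kb came after Entpd1 at 29.7, P2rx7 at 22.8 and P2rx4 at 17.8 CPM per kb, with each of these 4 overlapping its neighbour. Adora2b at 2.09 was next, then P2ry14 at 1.52 and Adora2a at 1.49, which overlapped, and last Nt5e at 0.624 and Adora3 at 0.408 CPM per kb, which overlapped too. With the longest coding transcript as length P2rx4 moved to second place in both groups, at 45.1 CPM per kb in controls, where Entpd1 also had 45.1, and 46.2 in PTEC DN RAR. Cd38 then had rank 4 in controls, at 41.8 CPM per kb with a range that overlapped those of P2rx4 and Entpd1. In PTEC DN RAR it had rank 5, at 16.5 CPM per kb. P2ry14 then came before Adora2b, at 6.95 against 6.71 CPM per kb in controls, where their ranges overlapped, and 6.79 against 2.09 in PTEC DN RAR, where they did not.

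The 3 genes with the largest falls, Adora2b, Cd38 and Nt5e, are shown by their start regions, because the values above turn most on them. Each run is 250 bases before to 50 after the RefSeq start on the plus strand of GRCm38.p6, with capitals at the hypoxia response core GCGTG or its reverse complement. The window of Adora2b is chr11:62248734-62249033, that of Nt5e chr9:88327359-88327658 and that of Cd38 chr5:43868559-43868858. The RefSeq start lies 412 bp inside the outermost GENCODE start for Nt5e and 256 bp inside it for Cd38, so these windows fall within the gene coordinates given above, and both starts are the same for Adora2b.
Adora2b: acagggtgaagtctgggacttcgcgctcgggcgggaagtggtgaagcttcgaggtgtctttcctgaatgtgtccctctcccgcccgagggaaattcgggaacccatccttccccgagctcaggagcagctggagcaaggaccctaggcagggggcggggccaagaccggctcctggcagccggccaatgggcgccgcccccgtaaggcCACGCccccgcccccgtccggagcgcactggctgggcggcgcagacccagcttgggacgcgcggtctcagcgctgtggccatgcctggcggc
Nt5e: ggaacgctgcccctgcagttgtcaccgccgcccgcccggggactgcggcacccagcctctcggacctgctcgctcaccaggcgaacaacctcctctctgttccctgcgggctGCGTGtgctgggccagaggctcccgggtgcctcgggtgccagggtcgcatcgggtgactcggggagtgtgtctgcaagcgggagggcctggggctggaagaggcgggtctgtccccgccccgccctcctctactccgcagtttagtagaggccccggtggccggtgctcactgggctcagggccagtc
Cd38: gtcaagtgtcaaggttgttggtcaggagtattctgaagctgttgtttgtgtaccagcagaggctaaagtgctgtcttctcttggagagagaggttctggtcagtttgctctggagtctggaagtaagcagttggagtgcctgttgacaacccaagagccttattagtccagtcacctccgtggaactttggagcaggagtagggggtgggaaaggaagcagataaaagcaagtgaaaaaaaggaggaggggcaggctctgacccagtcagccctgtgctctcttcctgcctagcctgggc

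The Adora2b and Nt5e windows were rich in G and C (70% and 71%) with 27 and 23 CpG, whereas the Cd38 window held 51.7% G and C and 1 CpG. The medians over 32851 mouse promoter windows were 52.7% and 7. Searched on both strands were the hypoxia response cores ACGTG and GCGTG, the CREB core TGACG, the AP-1 motif TGANTCA, the IRF motif, the NF-kB motif and the retinoic acid response element of the DR5 type. Adora2b held 1 match, GCGTG on the minus strand 42 to 38 bases before the start, and Nt5e 1, GCGTG on the plus strand 138 to 134 bases before it. GCGTG occurs in 32.4% of all windows, ACGTG in 19.6%, TGACG in 20.8%, TGANTCA in 7.81%, the IRF motif in 3.44%, the NF-kB motif in 5.8% and the DR5 element in 0.0974%. GCGTG holds a CpG, and its share among windows as rich in CpG as those of Adora2b and Nt5e was not taken. The Cd38 window held no match, which says only that these letters are absent there, and a match is not a binding site. RefSeq windows were found for 8 of the 10 genes, not for Adora2a and P2ry6. Entpd1, P2rx4, P2rx7, Adora3 and P2ry14 held a CREB core, AP-1 or GCGTG match in at least 1 window. The window of Adora3 begins from a start 33563 bp inside the outermost GENCODE start, and 3 of the 4 windows of P2ry14 from starts 22290 to 22856 bp inside it. The second window of Entpd1, which holds a CREB core, has its start 47404 bp inside. That of P2rx7, without a match, lies 6472 bp inside. None of the 8 held a DR5 element, an NF-kB motif or an IRF motif.

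Around the 10 genes, 95 other genes of the pathway were listed in 9 groups, of which 84 were tested. Of these 26 fell, 19 rose and 39 did not pass (edgeR, adjusted p under 0.05), beside the 17.1% and 23.6% of all genes, with a median log2 fold change of -0.09. Among 8 tested of 12 other P1 and P2 receptors, 3 fell (P2ry10, P2ry12 and P2ry13) and 2 rose (Adora1 and P2rx5). P2ry10, a lysophosphatidylserine receptor of the P2Y family, went from 16.3 ± 2.23 to 9.98 ± 1.56 CPM (log2 fold change -0.71, adjusted p = 0.009). P2rx5, an ATP channel gene, rose from 1.39 ± 0.198 to 3.98 ± 2.03 CPM (1.52, adjusted p = 0.014), a call lost without control 3 (1.41). P2ry1 and P2ry2, receptors for ADP and for ATP and UTP, had log2 fold changes of -0.55 and -0.44 that did not pass (adjusted p = 0.071 and 0.073), and P2rx1 stood at 0.04. Without PTEC DN RAR mouse 3 both P2ry1 and P2ry2 were called lower (-0.74 and -0.64, adjusted p = 0.039 and 0.025), as they were by DESeq2 with all 6 mice (-0.58 and -0.48, adjusted p = 0.046 and 0.036), and P2ry2 with the replicate block (-0.47, adjusted p = 0.045).

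Of 6 other ectonucleotidase genes, which cut nucleotides at the cell surface, 3 rose and none fell, while Nt5e was lower. Alpl, the tissue-nonspecific alkaline phosphatase that also turns AMP into adenosine, rose from 26.2 ± 7.67 to 83.2 ± 9.83 CPM (log2 fold change 1.66, adjusted p = 5.5e-04). Entpd2, an ecto-ATPase, rose from 0.86 ± 0.0788 to 3.25 ± 0.988 CPM (1.91, adjusted p = 0.0015), and Enpp3, which cleaves ATP and NAD, from 1.76 ± 0.49 to 5.21 ± 1.72 CPM (1.56, adjusted p = 0.0045). Entpd3 had a log2 fold change of -0.85 that did not pass (adjusted p = 0.221), but without PTEC DN RAR mouse 1 it was called lower (-1.78, adjusted p = 0.010). Without control 2, 1 gene of the list was also called lower. All 14 proximal tubule markers also rose (median log2 fold change 1.77), and the part of tubule RNA in these 3 rises was not tested. With the mean of these markers as a covariate the fitted log2 fold change of Enpp3 was -1.12 ± 0.76, that of Alpl 0.61 ± 0.69 and that of Entpd2 2.83 ± 1.15 (SE), none past the threshold.

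Among 8 tested genes for adenosine removal and transport 2 fell and 3 rose, and under pan-leukocyte scaling 1 fell and 4 rose. Slc28a1, the concentrative pyrimidine nucleoside carrier, rose from 0.374 ± 0.144 to 1.92 ± 0.746 CPM (log2 fold change 2.33, adjusted p = 0.0035), and Slc29a3, the lysosomal carrier and the most abundant of the list, stood at 208 ± 6.17 and 203 ± 9.36 CPM (-0.03). Of 6 ATP release genes 2 fell (1 under pan-leukocyte scaling), and Gja1, which encodes the hemichannel protein connexin 43, went from 9.63 ± 3.48 to 2.89 ± 0.346 CPM (-1.73, adjusted p = 0.0022). Fam26f, a calcium homeostasis modulator channel gene, stood at 20.2 ± 5.21 and 19.0 ± 0.806 CPM (-0.09).

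On the NAD side, 1 of 9 tested NAD ectoenzyme and ADP-ribose target genes fell, Bst1, and 2 rose, among them Art3, a mono-ADP-ribosyltransferase, from 0.566 ± 0.102 to 1.58 ± 0.302 CPM (log2 fold change 1.48, adjusted p = 0.0049). Under pan-leukocyte scaling and with the replicate block, 4 genes of this list rose. Of 9 tested NAD synthesis genes 1 fell and 4 rose, the rises going to 2 without control 2, PTEC DN RAR mouse 2 or PTEC DN RAR mouse 3, and under pan-leukocyte scaling 0 fell and 5 rose. Qprt, which makes NAD from tryptophan and is strong in kidney, rose from 5.75 ± 0.571 to 15.9 ± 1.07 CPM (1.47, adjusted p = 2.3e-04), while Nadk, the NAD kinase, stood at 273 ± 10.2 and 321 ± 26.4 CPM (0.24, adjusted p = 0.069).

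Downstream of the receptors, 4 of 18 genes of the cAMP arm fell and 3 rose, the falls going to 2 without control 3 or PTEC DN RAR mouse 1. The rises included Adcy6, an adenylyl cyclase, from 21.9 ± 5.48 to 65.3 ± 15.9 CPM (log2 fold change 1.57, adjusted p = 9.8e-04) and Rapgef3, the cAMP sensor EPAC1, from 7.96 ± 2.24 to 27.0 ± 4.96 CPM (1.76, adjusted p = 7.2e-04). Gnai2, the abundant Gi subunit, stood at 1268 ± 91.8 and 1177 ± 108 CPM (-0.11). Under pan-leukocyte scaling 1 gene of the cAMP arm fell and 7 rose. In the inflammasome arm downstream of P2X7, 6 of 8 genes fell and none rose, beside 17.1% lower and 23.6% higher of all genes. Those that fell were Nlrp3, Pycard, Casp1, Nek7, Il1b and Il18, named after their values were seen, while P2rx7 itself did not pass. The falls went to 4 without control 3 or PTEC DN RAR mouse 2. They went to 5 without control 1, PTEC DN RAR mouse 1 or mouse 3 and with 10 counts required, and to 7 by DESeq2. Pycard overlapped between genotypes, at 82.5 to 105 CPM in controls and 63.4 to 82.7 CPM in PTEC DN RAR (edgeR adjusted p = 0.041). Il1b went from 1088 ± 114 to 687 ± 84.6 CPM (log2 fold change -0.66, adjusted p = 0.0041). The list's median log2 fold change was -0.49 against 0.04 over all genes, 3 of its genes fell and 1 rose under pan-leukocyte scaling, and the summed CPM of monocyte markers was lower in PTEC DN RAR as given above.

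HIF targets, a list that includes Hif1a, were described because Adora2b and Nt5e are known hypoxia-responsive genes. Of 12 genes 7 fell and 2 rose, beside 17.1% lower and 23.6% higher of all genes, with a median log2 fold change of -0.46. The falls went to 5 without control 1, control 3, PTEC DN RAR mouse 1 or PTEC DN RAR mouse 2. Whether hypoxia signalling has a part in the levels of Adora2b and Nt5e was not tested. Ldha, the lactate dehydrogenase of glycolysis, went from 424 ± 16.2 to 268 ± 13.1 CPM (-0.66, adjusted p = 7.9e-04). Ndrg1 rose from 196 ± 50.7 to 402 ± 39.3 CPM (1.04, adjusted p = 0.0024), and Adm, which encodes adrenomedullin, from 1.31 ± 0.491 to 2.81 ± 0.524 CPM (1.09, adjusted p = 0.021), the latter call lost without control 2, control 3 or PTEC DN RAR mouse 3 (0.82, 1.02 and 0.89). Under pan-leukocyte scaling 4 of the 12 fell and 2 rose.

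**Figure D3:**
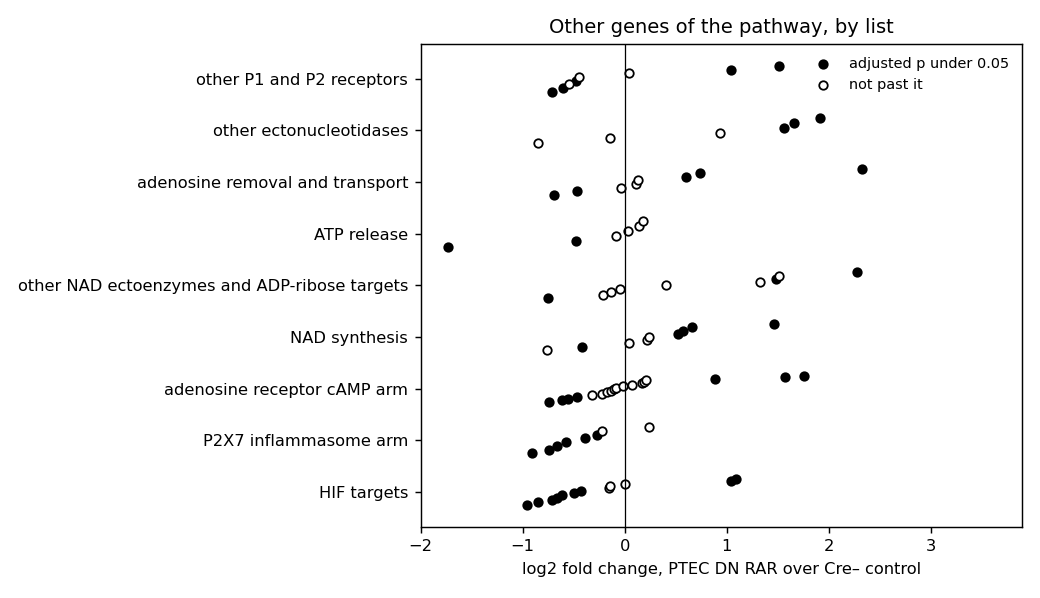
Log2 fold change of each tested pathway gene outside the 10 (x axis, PTEC DN RAR over Cre– control, edgeR), by list. Filled points passed an adjusted p of 0.05 and open points did not. The filled points of the inflammasome arm all lie below 0, and those of the other ectonucleotidases all lie above 0.

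The result depended on what the libraries are scaled to. When 20 pan-leukocyte genes set the scale instead, the middle of all log2 fold changes shifted from 0.04 (TMM) to 0.26, and the share of lower genes among the calls went from 42% to 11.8%. Adora2b at -1.45, Cd38 at -1.14 and Nt5e at -0.85 kept their calls, P2ry6 at -0.21 and Adora3 at -0.73 lost them, and Adora2a at 0.63 was called higher. For Entpd1, P2rx7 and P2ry14, none of them called, the sign turned (0.02, 0.13 and 0.20). With the mean of the proximal tubule markers as a covariate, which itself separated the genotypes, no gene of the 10 was called, and Adora2b had -1.48 ± 0.82, Cd38 -2.25 ± 0.91, Nt5e -2.15 ± 0.73, Adora3 -0.27 ± 1.19 and P2ry6 -0.20 ± 0.41 (log2 fold change ± SE).

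**Figure D4:**
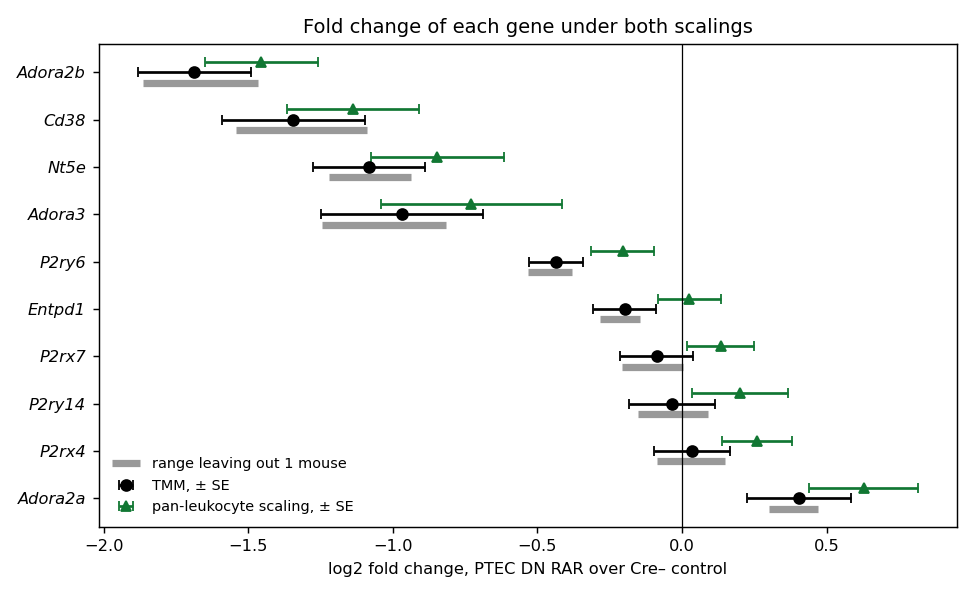
Log2 fold change of each of the 10 genes (x axis, PTEC DN RAR over Cre– control) with TMM scaling (black circles ± SE), with pan-leukocyte scaling (green triangles ± SE) and as the range when 1 mouse is left out (grey bars). Adora2b, Cd38, Nt5e, Adora3 and P2ry6 lie below 0 in all 3, and the green triangles lie to the right of the circles for every gene.

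The genes whose log2 CPM followed Adora2b most closely over the 6 libraries, among 8992 genes with a mean of at least 10 CPM, were Sec13, Chic2, Polb, Smg8 and Metrnl (Pearson r from 0.993 to 0.997). Those closest to Cd38 were Tgm1, Syk, Hcar2, Vac14 and Ralb (r from 0.993 to 0.995). The correlation compares the pattern over libraries, not the level or the size of a change. Sec13, for example, had 75.7 CPM in controls and a log2 fold change of -0.37. All 6 points carry the genotype difference, so these values describe a shared pattern alone.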

How the data were processed

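The authors deposited raw counts of reads per gene, without normalization, and their processing notes name STAR 2.5.0a, HTSeq 0.6.1 and GRCm38. The strand setting and annotation release are not given in the sources used here. From 46612 lines, 9 repeated identifiers were dropped and 27 date-like symbols restored. Coordinates and exon lengths came from GENCODE M21 (46005 genes found). Reads not uniquely aligned, 42.9% to 47.8% of alignments, are outside the counts, which lowers genes with near-identical copies.

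Counts were filtered (filterByExpr), TMM-scaled and tested with the quasi-likelihood test of edgeR 4.0.16 (R 4.3.3), Benjamini-Hochberg adjusted over all genes tested. SE is the log2 fold change over the square root of F. The test was tried on simulated counts. Alternatives used limma 3.58.1, DESeq2 1.42.0, other scalings, filters and covariates, and each mouse left out.

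The 10 genes and all lists were chosen with earlier results of these data known. Named besides were pathway genes past the threshold with an absolute log2 fold change of at least 1 and a mean of at least 1 CPM, the most abundant gene per length of each list, and 10 relatives. Nlrp3, Pycard, Casp1, Nek7 and Il18 meet none of these rules and were named after their values were seen. Promoters came from RefSeq (GRCm38.p6). No labelled sample was left out. The precision of low genes is set by counting error and 3 mice per group.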

Additional observations from a re-analysis of the deposited data

How the results depend on the processing

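Across 14 alternatives, the 10 genes kept their side of the threshold in 128 of 140 refits. The exceptions were the loss of Adora3 and P2ry6 and the gain of Adora2a under pan-leukocyte scaling, the loss of Adora3 without single mice, and the loss of all 5 calls with the proximal tubule covariate. Under pan-leukocyte scaling 3 of the 10 genes were lower and 1 higher, 13 pathway genes lower and 29 higher, and 685 of all genes lower and 5136 higher. With the proximal tubule covariate 0 of the 10 were called, 0 pathway genes lower and 0 higher, and 1 gene of all was lower and 0 higher by edgeR (677 at an unadjusted p under 0.05), against 2636 and 3640 in the model without it. DESeq2 called 3278 lower and 3548 higher and limma-voom 2589 and 3566. With the covariate the fitted log2 fold change turned sign for Enpp3 (-1.12 ± 0.76, SE), Slc28a1 (-0.38 ± 1.43) and Il1b (0.11 ± 0.46), called without it. It also turned for P2rx4 (-0.41 ± 0.53), Entpd3 (3.28 ± 1.42), P2ry2 (0.39 ± 0.70), Gnai2 (0.07 ± 0.48) and Fam26f (0.07 ± 0.77), which were not called in either fit. The covariate itself separated the genotypes and none of these genes was called with it, so the turned signs are not read as reversals. The cause was not tested. For the 27 named pathway genes, of which 8 had no call, the side of the threshold was kept in 340 refits, a call was lost in 26, lost with a turned sign in 3 and gained in 8.

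Leaving out 1 mouse gave 4 to 5 lower and 0 higher of the 10 genes, 20 to 27 lower and 13 to 18 higher pathway genes, and 1874 to 2824 lower and 2433 to 3699 higher genes of all. Log2 fold changes then ran from -1.86 to -1.47 for Adora2b, from -1.54 to -1.09 for Cd38, from -1.22 to -0.94 for Nt5e, from -1.25 to -0.82 for Adora3 and from -0.53 to -0.38 for P2ry6. With the replicate block 5 of the 10 genes, 27 pathway genes and 2606 of all were lower, and 0, 21 and 3612 higher. The numbers name different animals, and same-numbered libraries deviated with correlations of -0.0147, 0.211 and 0.0286, so they do not pair the mice. Library size alone, no filter and a filter of 10 counts in every library left the call of each of the 10 genes as it was. Adora3 and Adora2a rest on few counts, 50 to 217 per library, and Adora2b on 160 to 174 in PTEC DN RAR.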

Other observations

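Count ratios of P2Y members to relatives within a library, in which scaling cancels, were also taken. P2ry14 counts per P2ry12 count were 0.207 to 0.274 (Cre– controls) against 0.309 to 0.427 (PTEC DN RAR), without overlap, with P2ry12 being the gene that fell. P2ry6 counts per P2ry2 count overlapped between genotypes, with a mean log2 difference of 0.03, and the 2 genes lie 21919 bp apart.

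Further cell type markers were read in the same libraries. B cell markers summed to 38.5 to 47.8 CPM in controls and 51.0 to 78.9 in PTEC DN RAR, and T cell markers to 43.2 to 71.6 and 86.3 to 109. Thick ascending limb markers summed to 1027 to 1447 and 3574 to 6938 CPM, and intercalated cell markers to 60.9 to 131 and 172 to 357. Of 6 mast cell markers 1 was tested, and Mcpt4, Tpsb2, Fcer1a and Ms4a2 had at most 3 counts in each library. Fibroblast and pericyte markers overlapped between genotypes in summed level, at 60.4 to 72.4 and 60.3 to 164 CPM. Rara, the endogenous counterpart of the dominant negative receptor, stood at 42.0 ± 5.75 and 33.3 ± 3.72 CPM in these cells, with overlapping groups.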
